A study of Arabidopsis thaliana with 27 samples.

Results

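Inflorescences of the Arabidopsis mutant dcl4-2 were set against inflorescences of Col-0, the wild type, on Affymetrix ATH1 gene expression arrays. Members were taken from the sample descriptions and not from measured values: the 3 dcl4-2 arrays and the 3 Col-0 arrays described as their control, 6 of the 27 arrays of the study, across 22746 of the 22810 probe sets on the array, leaving out 64 control probe sets. The control arrays were shared with rdr6-15 and are called Col-0 set A here, because a separate trio of Col-0 inflorescence arrays, set B, was described as the control of dcl1-7. Inflorescences at flower stages 1 to 12 were the tissue of both groups, and total RNA was the material. Each mutant was sampled in 3 biological replicates from at least 9 plants. The groups drawn on beside them were rdr6-15, dcl1-7 and Col-0 set B inflorescences, dcl4-2 leaves and Col-0 leaves (rosette leaves 5 to 8), with 3 arrays each. Leaves of rdr6-15 and dcl1-7, also 3 arrays each, entered the estimate of the spread in fits with leaf arrays. Replicate numbers follow the order of the sample records and only name an array, since the labels number none. No treatment is named in the labels, plant age is given only by the organ, and no second allele of DCL4 was profiled, so the mutant is represented by 1 line.

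DCL4 (Dicer-like 4) is a plant ribonuclease that cuts long double-stranded RNA into small interfering RNAs. In the trans-acting siRNA pathway, a microRNA first cuts a TAS transcript, SGS3 and the RNA polymerase RDR6 copy the fragment into double-stranded RNA, and DCL4 dices it in phase. The products guide cleavage of other mRNAs, among them auxin response factors and the RFL pentatricopeptide repeat genes, whose proteins act in mitochondrial RNA processing. rdr6-15 lacks the step just before DCL4, which makes it the closest comparison in the study.

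Values are the authors' RMA expression values on a log2 scale, so a difference of 1 is a 2-fold change. Differences are dcl4-2 minus the group named, with the standard error of the limma fit. A probe set is called where its limma p, adjusted by Benjamini-Hochberg over the 22746 probe sets, is under 0.05. The array annotation gives 1 gene symbol for 13513 of the probe sets tested, most of them locus tags. No probe set carries DCL4, RDR6, DCL1 or SGS3 as its 1 symbol, so the mutated gene could not be read as a check of the labels. Loci known here by their tag alone are given without a role. In whole inflorescences, fewer cells of a type and less RNA per cell cannot be told apart.

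Before the results, the arrays differ in ways that touch them. dcl4-2 replicate 2 stood apart from the other dcl4-2 arrays. Its control transcripts (actin, GAPDH and ubiquitin) had a 3′ minus 5′ signal difference of 2.45 on the log2 scale, against 1.36 and 1.32 in dcl4-2 replicates 1 and 3 and 1.34 to 1.42 in Col-0 set A. Over all probe sets it correlated at 0.986 and 0.988 with the other dcl4-2 arrays, which correlated at 0.996 with each other, while the set A arrays correlated at 0.997 to 0.998. The wild-type sets were far apart: set A and set B arrays correlated at 0.928 to 0.933, and 10847 probe sets (47.7%) were called between them. Markers of floral tissue matched the organ label in part. The tapetum and microspore markers EMS1, AMS and SPL, the 3 measured of 16, averaged 7.81 to 8.19 on the dcl4-2 arrays and 8.08 to 8.28 on the set A arrays, against 5.77 to 5.99 on the Col-0 leaf arrays. Of the flower markers, SPT averaged 7.63 in dcl4-2 and 7.31 in set A against 5.83 in Col-0 leaves, INO averaged 6.86 and 6.71 against 6.43, and UFO did not stand above its leaf level of 6.40, with 5.98 and 6.09. The 2 meiosis markers measured averaged 4.88 to 4.99 on the dcl4-2 arrays and 5.00 to 5.01 on the set A arrays, against 4.91 to 4.98 on the Col-0 leaf arrays. None of the 3 root markers measured was called, and the 1 seed marker measured, LEA, was called higher in dcl4-2. The part of these levels in the results was not tested.

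In dcl4-2 inflorescences 473 probe sets were called, 2.08% of those tested. Of these, 252 were higher (1.11%) and 221 lower (0.972%) than in Col-0 set A. Most changes were small: the median called difference was 0.53 for rises and -0.55 for falls, and 12 rises (0.0528% of all probe sets) and 32 falls (0.141%) reached 2-fold. All 473 called probe sets had dcl4-2 values that did not overlap those of set A, as did 21.1% of all probe sets tested. With 1 symbol each, 248 of the called probe sets could be named (137 higher, 111 lower), and they stand for 247 genes. Of the 2-fold changes, 8 of the 12 rises and 11 of the 32 falls had 1 symbol. The largest rises and falls described below are ranked among probe sets with 1 symbol, so most 2-fold falls are not described. Without dcl4-2 replicate 2 the number called was 253. Without replicate 1 of dcl4-2 it was 267, and without set A replicates 1, 2 and 3 it was 157, 213 and 213. With all 6 arrays and in each of the 6 fits that left out 1 of them, 132 probe sets were called (57 higher, 75 lower).

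The largest fall was that of AT3G05730, which stands in the list of defensins and thionins, small cysteine-rich proteins of which many are antimicrobial. Its values were 4.68, 4.81 and 4.55 in dcl4-2 inflorescences, against 7.86, 7.83 and 8.70 in Col-0 set A. Every dcl4-2 array lay far below every set A array, and the groups did not overlap. The difference was -3.45 ± 0.34, a 10.9-fold lower level (limma adjusted p = 0.000629). The deposited values carry no detection calls, so whether the dcl4-2 signal stood above background is unknown. If it did not, the fold is a lower limit, which holds for every gene with a group at such low values. All other inflorescence groups had group means of 8.05 or higher: 9.46 in rdr6-15, 8.66 in Col-0 set B and 8.05 in dcl1-7. In leaves it was high in dcl4-2 too, at 11.92, 11.53 and 11.71, against 11.93, 11.26 and 11.63 in Col-0, so its low level in dcl4-2 was seen in the inflorescence arrays and not in the leaf arrays. THI2.2, a thionin, also fell, by 0.60 ± 0.11 (limma adjusted p = 0.0129). Its values were 7.79, 7.73 and 7.79 in dcl4-2 and 8.24, 8.45 and 8.41 in set A. The other 11 measured members of the 13 lay between -0.14 and 0.34 and were not called, while 0.972% of all probe sets were called lower. The list's median was -0.02, beside -0.01 over all probe sets. The call of THI2.2 ended without set A replicate 2 or 3 (limma adjusted p = 0.0586 at most).

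WRKY53 is a transcription factor that promotes leaf senescence and takes part in defence. Among the 12 largest named falls it alone had a symbol other than a locus tag. It measured 5.47, 5.79 and 5.53 in dcl4-2 inflorescences and 7.36, 6.32 and 7.12 in Col-0 set A. The groups did not overlap, but set A spread over more than 1 unit. The difference was -1.33 ± 0.22 (limma adjusted p = 0.00879), and in rdr6-15 it stood at 6.02 ± 0.22 (SD, n = 3).

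Further loci, known by their tags, completed the 12 largest named falls, which ran down from -0.99 (AT3G15630) to the -3.45 of AT3G05730. AT3G15450 had 11.55, 11.24 and 11.83 in dcl4-2 and 13.15, 13.05 and 13.21 in set A, a difference of -1.60 ± 0.12 (limma adjusted p = 0.000119). AT5G19120 had 9.92, 9.70 and 10.29 in dcl4-2 against 11.45, 11.40 and 11.40 in set A, a difference of -1.45 ± 0.18. In both, dcl4-2 replicate 2 was the lowest array, and the differences without it were -1.45 and -1.31, still called. AT2G20670 differed by -1.34 ± 0.17, AT1G55450 by -1.30 ± 0.21, AT1G68440 by -1.05 ± 0.11 and AT1G26800 by -1.01 ± 0.09. Of the 12 falls, 9 were called whichever 1 of the 6 arrays was left out. AT4G22490 (-1.27) was called only without set A replicate 1, AT5G55450 (-1.12) only without dcl4-2 replicate 3, and the call of AT1G22690 (-1.05) ended without dcl4-2 replicate 1, set A replicate 1 or set A replicate 3 (limma adjusted p up to 0.0719). In 11 of the 12 genes set B lay above set A, by up to 4.15 for AT2G20670, and in 6 the distance between the wild types was larger than the dcl4-2 difference. The part of the wild-type difference in these results was not tested.

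**Figure D1:**
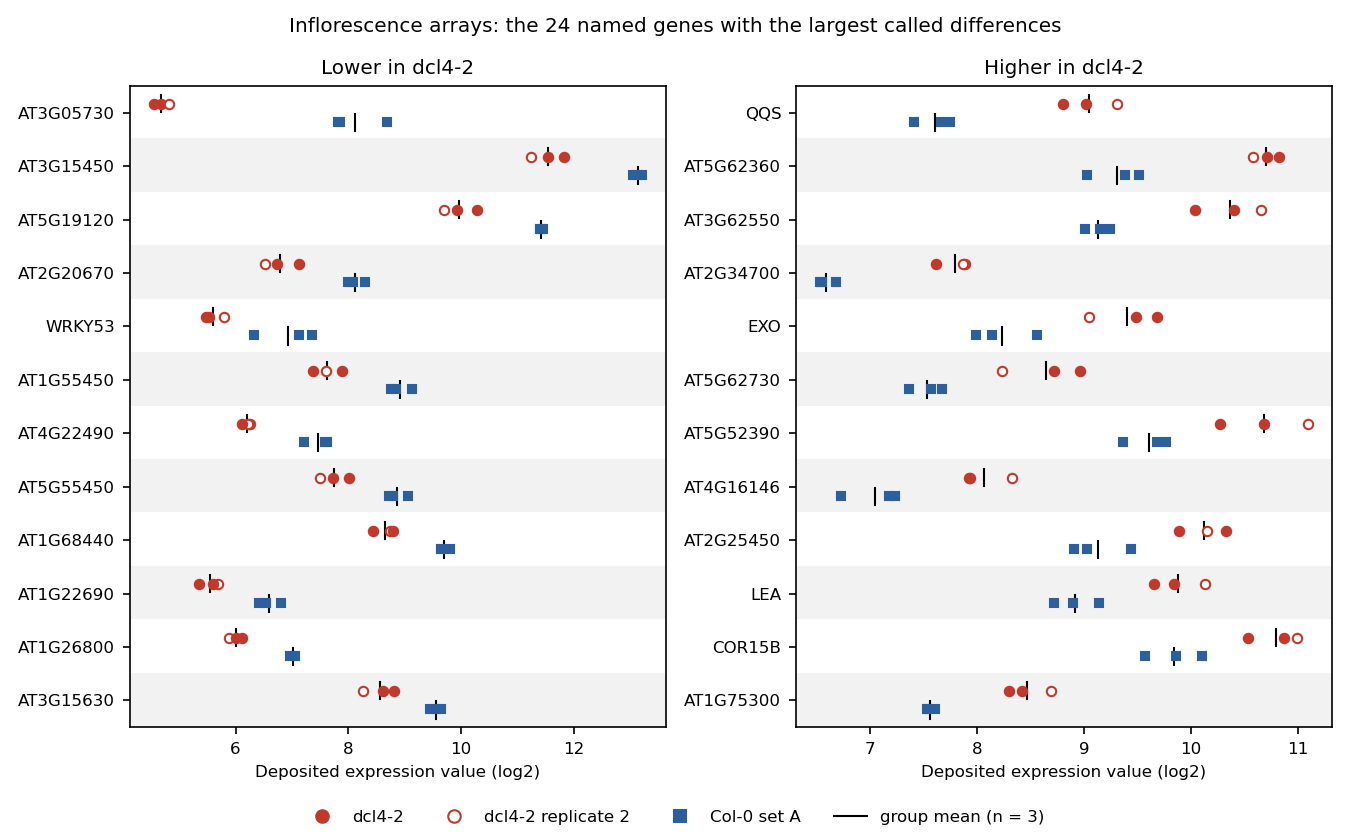
Deposited log2 expression values (x axis) of the 24 named genes with the largest called differences, those lower in dcl4-2 in the left panel and those higher in the right; circles are the 3 dcl4-2 inflorescence arrays (open circle, replicate 2), squares the 3 Col-0 set A arrays, and ticks the group means. Genes were named only where the dcl4-2 arrays did not overlap the set A arrays, so a gap in every row follows from the choice. AT3G05730 has the widest gap (4.68 against 8.13 as group means).

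Among the called rises with 1 symbol, QQS led. QQS is an orphan gene found in Arabidopsis alone, with a part in setting leaf starch content. It measured 9.02, 9.31 and 8.80 in dcl4-2 inflorescences and 7.75, 7.41 and 7.67 in Col-0 set A. The groups lay more than 1 unit apart, with a difference of 1.44 ± 0.17, 2.70-fold (limma adjusted p = 0.00166). AT5G62360 had 10.82, 10.58 and 10.71 in dcl4-2 against 9.03, 9.38 and 9.51 in set A (1.397 ± 0.18). AT2G34700 had 7.89, 7.87 and 7.62 in dcl4-2 against 6.55, 6.68 and 6.54 in set A (1.202 ± 0.10), the smallest standard error among the 12 largest rises. AT5G62730 rose by 1.11 ± 0.15, with dcl4-2 replicate 2 the lowest of its group. Over the 12 largest rises, dcl4-2 replicate 2 was the highest dcl4-2 array in 7, QQS among them, and the lowest in 3. Without it 7 of the 12 rises were no longer called, against 2 of the 12 falls. Calls also ended without other arrays. Of 44 called genes named against set A, rises and falls together, 16 lost their call without dcl4-2 replicate 2. It was 14 and 9 without dcl4-2 replicates 1 and 3, and 19, 17 and 17 without set A replicates 1, 2 and 3.

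QQS, AT5G62360, AT2G34700 and AT5G62730 were the rises among the 12 largest that stayed called whichever 1 of the 6 arrays was left out. LEA, a dehydrin and the seed marker named above, rose by 0.96 ± 0.21 (limma adjusted p = 0.032), with 9.66, 10.13 and 9.84 in dcl4-2 and 8.72, 8.89 and 9.14 in set A. Its call, and those of AT2G25450 (0.99) and AT4G16146 (1.01), ended on leaving out any 1 of the 6 arrays (limma adjusted p up to 0.155, 0.179 and 0.161). AT3G62550 (1.23) and AT5G52390 (1.07) were called only without dcl4-2 replicate 3 among those fits, and the call of AT1G75300 (0.91) ended without dcl4-2 replicate 2 or set A replicate 1 or 2. Against set B instead of set A, AT2G25450 differed by -1.74 and AT3G62550 by -0.50, the opposite direction. Set B lay below set A in 7 of the 12 rises and above it in 5, by -3.63 to 2.73, and in 6 the wild types were further apart than dcl4-2 and set A.

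Cold- and drought-protection genes rose in part. COR15A and COR15B encode small proteins that protect chloroplast membranes in freezing. COR15A measured 12.36, 12.53 and 12.25 in dcl4-2 inflorescences and 11.58, 11.65 and 11.69 in Col-0 set A (0.74 ± 0.12, limma adjusted p = 0.00831). COR15B measured 10.87, 10.99 and 10.53 in dcl4-2 and 9.57, 9.86 and 10.10 in set A (0.95 ± 0.18, limma adjusted p = 0.0172). All dcl4-2 arrays lay above all set A arrays for both, which are neighbouring, similar genes, so that their probe sets may share target RNA. XERICO, a RING protein that raises abscisic acid levels, fell by 0.42 ± 0.08 (limma adjusted p = 0.0215). The dehydrins COR47 (0.68 ± 0.19) and LTI30 (1.15 ± 0.34) were not called. The 5 measured members thus gave 2 rises and 1 fall, with a median of 0.74, beside 1.11% higher, 0.972% lower and a median of -0.01 over all probe sets. Without dcl4-2 replicate 2, COR15A remained as the 1 call. The call of COR15B also ended without dcl4-2 replicate 1 or set A replicate 1 or 2, and that of XERICO held only without set A replicate 2.

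Genes of wall growth gave 3 rises and no fall among 17 measured, beside 1.11% higher and 0.972% lower over all probe sets. XTH16 and EXGT-A3 encode enzymes that cut and rejoin xyloglucan, and EXO (EXORDIUM) is a brassinosteroid-responsive promoter of cell expansion. EXO measured 9.68, 9.05 and 9.49 in dcl4-2 against 7.99, 8.56 and 8.14 in set A (1.18 ± 0.25, limma adjusted p = 0.032). XTH16 measured 10.08, 9.90 and 9.60 in dcl4-2 against 9.21, 8.93 and 9.05 in set A (0.80 ± 0.14). EXGT-A3 measured 9.63, 9.74 and 9.59 in dcl4-2 against 8.84, 8.83 and 9.01 in set A (0.76 ± 0.13). None of these overlapped between the groups, yet the list's median was 0.05, and its members ranged from EXPA4 (-1.03 ± 0.59, not called) to EXO. EXPA4, an expansin, had 9.45, 7.42 and 9.85 in dcl4-2 against 10.04, 9.84 and 9.94 in set A, with dcl4-2 replicate 2 far below the rest. The expansin-like EXLA1 (0.84 ± 0.22) and XTH19 (0.95 ± 0.29) were not called. The call of XTH16 ended without set A replicate 2, that of EXGT-A3 without set A replicate 1, and that of EXO without dcl4-2 replicate 1 or 3 or set A replicate 1 or 3. With set B as the control, EXO differed by -1.33 and EXGT-A3 by -1.92.

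Of 11 measured tau glutathione transferases, detoxification enzymes that join glutathione to other compounds, GSTU26 and GSTU27 rose and none fell, beside 1.11% higher and 0.972% lower over all probe sets. GSTU26 measured 8.35, 8.79 and 8.71 in dcl4-2 against 7.73, 7.64 and 7.94 in set A (0.84 ± 0.14, limma adjusted p = 0.00817). GSTU27 rose by 0.49 ± 0.10, and its call held only without dcl4-2 replicate 3. The list's median was 0.09.

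Of the small RNA pathway and its targets little could be measured by 1-symbol probe sets. None of the 14 listed targets of trans-acting siRNAs outside the RFL family had one, and 5 of 35 genes of the small RNA machinery had. AGO7, the Argonaute that binds miR390 and starts TAS3 siRNA production, measured 7.59, 7.66 and 7.41 in dcl4-2 and 7.59, 7.66 and 7.45 in set A. The difference of -0.01 ± 0.11 was smaller than the spread of either group. SE (SERRATE), a cofactor of microRNA processing, differed by -0.10 ± 0.08, and no member of the machinery list was called. Of 14 RFL pentatricopeptide repeat genes, 1 rose and none fell, beside 1.11% higher and 0.972% lower over all probe sets. AT1G63150 measured 5.70, 5.97 and 5.89 in dcl4-2 and 5.30, 5.31 and 5.28 in set A (0.56 ± 0.08, limma adjusted p = 0.00452), and it stayed called whichever 1 of the 6 arrays was left out. AT1G12775 (0.52 ± 0.14) and AT1G12620 (0.47 ± 0.15) were not called. The family's median was 0.01 and the other 11 lay between -0.05 and 0.17. The mean level of the 14 was 4.98 to 5.04 on the dcl4-2 arrays and 4.86 to 4.90 on the set A arrays. With no detection calls, low members may lie at background, so small differences do not show that the family was unchanged. As near copies of each other, these genes may share probe targets. Of 8 microRNA targets measured, CCS, which loads copper into superoxide dismutase and is targeted by miR398, fell by 0.63 ± 0.13 (limma adjusted p = 0.0235), a call that held only without dcl4-2 replicate 3.

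Hormone and energy genes gave single calls, beside 1.11% called higher and 0.972% called lower over all probe sets. WES1 (GH3.5), which conjugates auxin to amino acids, measured 8.10, 7.96 and 8.18 in dcl4-2 and 8.66, 8.72 and 8.65 in set A (-0.60 ± 0.09, limma adjusted p = 0.00649), the 1 fall among 14 auxin genes. ARR15, a response regulator that dampens cytokinin signalling, measured 7.44, 7.24 and 7.11 in dcl4-2 and 7.85, 7.86 and 7.90 in set A (-0.61 ± 0.10, limma adjusted p = 0.00814), the 1 fall among 4 cytokinin genes. AKINBETA1, a subunit of the energy-sensing kinase SnRK1, measured 8.65, 8.98 and 8.85 in dcl4-2 and 9.33, 9.30 and 9.46 in set A (-0.54 ± 0.08, limma adjusted p = 0.00649), the 1 fall among 9 genes of dark and starvation response, whose median was -0.04. These 3 calls held whichever 1 of the 6 arrays was left out. The gibberellin receptor GID1B fell by 0.58 ± 0.14, its call held only without dcl4-2 replicate 1, and its relatives GID1A and GID1C were not called. ATG8E, an autophagosome protein, fell by 0.46 ± 0.10 while its relative ATG8H differed by 0.68 ± 0.19 and was not called. The ATG8E call held only without dcl4-2 replicate 3.

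Photosynthesis transcripts leaned low with few calls, beside 1.11% called higher and 0.972% called lower over all probe sets. LHCB4.2, a minor antenna protein of photosystem II, fell by 0.34 ± 0.07 (limma adjusted p = 0.0255), the 1 call among 16 nuclear genes of photosynthesis, of which 12 lay below 0 with a median of -0.14. Its call held only without dcl4-2 replicate 1. Of 69 plastid-encoded transcripts, 56 lay below 0, with a median of -0.32, and none was called. Over all probe sets 47.7% of the differences lay above 0. The 69 plastid transcripts were measured on the same arrays, so they are not separate replicates of a shift. The mean level of these plastid transcripts was 8.04, 7.68 and 8.23 on the dcl4-2 arrays and 8.34, 8.49 and 8.32 on the set A arrays. The lowest was dcl4-2 replicate 2, the array with the high 3′ minus 5′ difference. Without it 66 lay below 0, the median was -0.23 and none was called.

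No gene was called in the lists of flower organ and meristem regulators (15 of 69 measured, median -0.01), pollen (15 of 59, 0.08), tapetum and anther (8 of 43, -0.25), meiosis (6 of 34, -0.06), SWEET and sugar transport (18 of 44, 0.02) or jasmonate response (8 of 37, 0.20). Over all probe sets 2.08% were called. At that share, no call in lists this short does not show that these genes were unchanged. The sugar exporters SWEET13 and SWEET10 differed by 0.55 ± 0.15 and -0.45 ± 0.12, and neither was called.

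**Figure D2:**
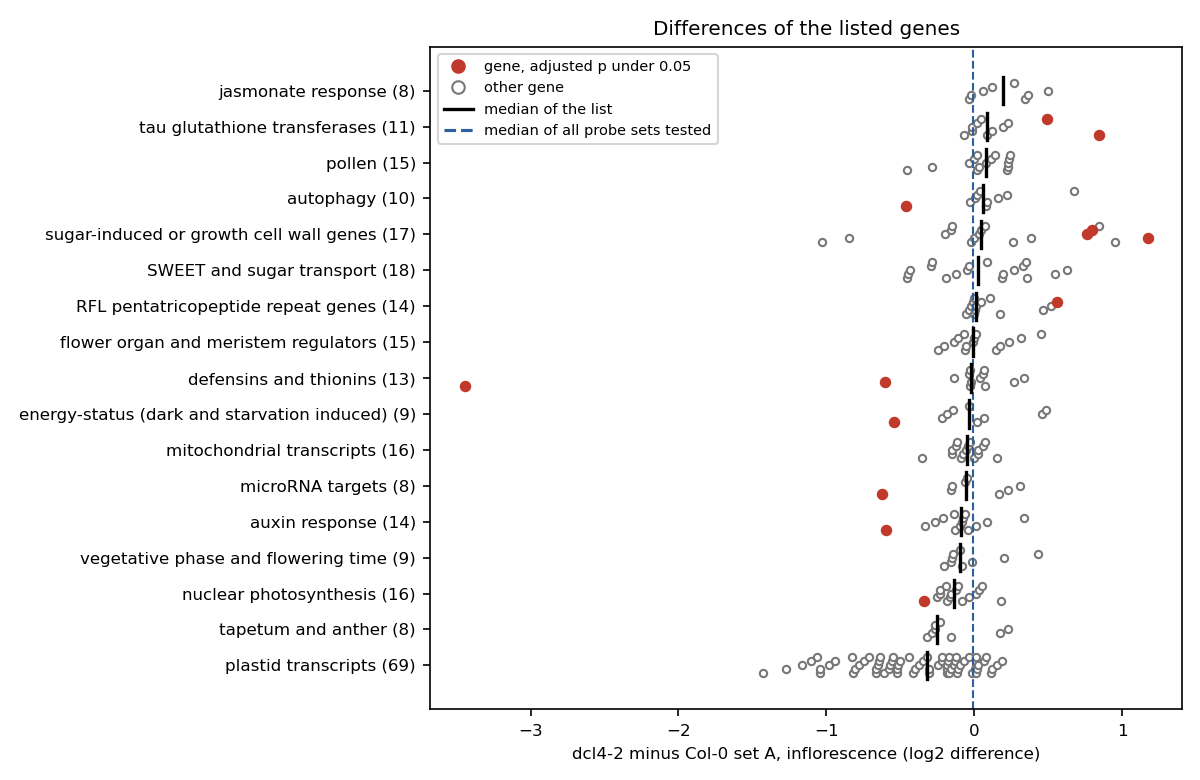
Differences dcl4-2 minus Col-0 set A in inflorescence (x axis, log2) for the members of each list with at least 8 genes measured, the number in parentheses; filled points were called by limma, bars are list medians and the dashed line is the median of all probe sets tested (-0.01). Called genes are single points away from list medians that lie near 0, and the plastid transcripts lie furthest below it (-0.32) without a call.

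Against rdr6-15 inflorescences, 3513 probe sets (15.4%) were called, 1825 higher (8.02%) and 1688 lower (7.42%) in dcl4-2. Both mutants block the same pathway, and the difference between them does not draw on the set A means. Calls held whichever of these 6 arrays was left out for 1910 probe sets. The number called was 2320 without rdr6-15 replicate 2. CYP71B31, a cytochrome P450, had 9.43, 9.48 and 10.37 in dcl4-2 against 4.77, 5.48 and 5.07 in rdr6-15 (4.66 ± 0.37, limma adjusted p = 2.34e-05). Col-0 set A had 8.96, 8.15 and 8.55 and Col-0 set B averaged 5.02, a set B minus set A difference of -3.53. With no detection calls, the low values in rdr6-15 and set B may lie at background, and both differences may then be lower limits of the size. SWEET9, the sugar exporter of nectaries, had 9.47, 9.07 and 9.83 in dcl4-2 against 6.84, 6.58 and 7.26 in rdr6-15 (2.56 ± 0.27). RALFL25, a gene for a RALF-like signalling peptide, differed by 2.72 ± 0.30, and AT5G39880, AT3G26860 and AT5G26700 by 3.05, 2.59 and 2.54. None of these 6 was called between dcl4-2 and set A, where they differed by 0.17 to 1.21.

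Pollen genes were part of this gap. In dcl4-2, 8 of 15 were higher than in rdr6-15 and none lower, with a median of 0.41. Over all probe sets 8.02% were higher and 7.42% lower, with a median of -0.02, which also applies to the lists that follow. ACT12, a pollen actin, was higher by 0.88 ± 0.10 and ANX2, a receptor kinase that keeps pollen tubes intact, by 1.11 ± 0.25. Of the 18 sugar transport genes, 8 were higher in dcl4-2 and none lower, with a median of 0.40, SWEET13 among them at 1.43 ± 0.15. Of the 16 nuclear photosynthesis genes none was higher and 9 were lower, with a median of -0.29, PORB by -1.003 ± 0.17 and CHLM by -0.47 ± 0.06, both enzymes of chlorophyll synthesis. Between rdr6-15 and set A, 1969 probe sets (8.66%) were called, 948 higher (4.17%) and 1021 lower (4.49%) in rdr6-15. The rdr6-15 arrays minus set A gave medians of -0.44 for pollen, -0.39 for sugar transport and 0.14 for nuclear photosynthesis, in a comparison that shares its control arrays with that of dcl4-2.

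The 6 largest differences in the other direction were led by AT3G05730 (-4.79 ± 0.34). AT1G66100 had 5.36, 5.29 and 5.03 in dcl4-2 against 8.61, 7.23 and 7.56 in rdr6-15 (-2.57 ± 0.38). AT1G22890 differed by -2.28 ± 0.18, AT4G17470 by -2.17 ± 0.26, ZW9 by -1.81 ± 0.15 and AT2G20670 by -1.80 ± 0.17. ZW9 was also lower than in set A, by 0.78 ± 0.15, a call lost without dcl4-2 replicate 2 or 3 or set A replicate 2 or 3. QQS was higher in both mutants than in set A but lower in dcl4-2 than in rdr6-15, which had 10.71, 10.73 and 10.56 (-1.62 ± 0.17, limma adjusted p = 9.73e-05). Of the 12 largest falls against set A, 11 were called against rdr6-15, and of the 12 largest rises 8 were, beside 15.4% of all probe sets. These genes were chosen for their values on the same dcl4-2 arrays, so the counts are no separate result.

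**Figure D3:**
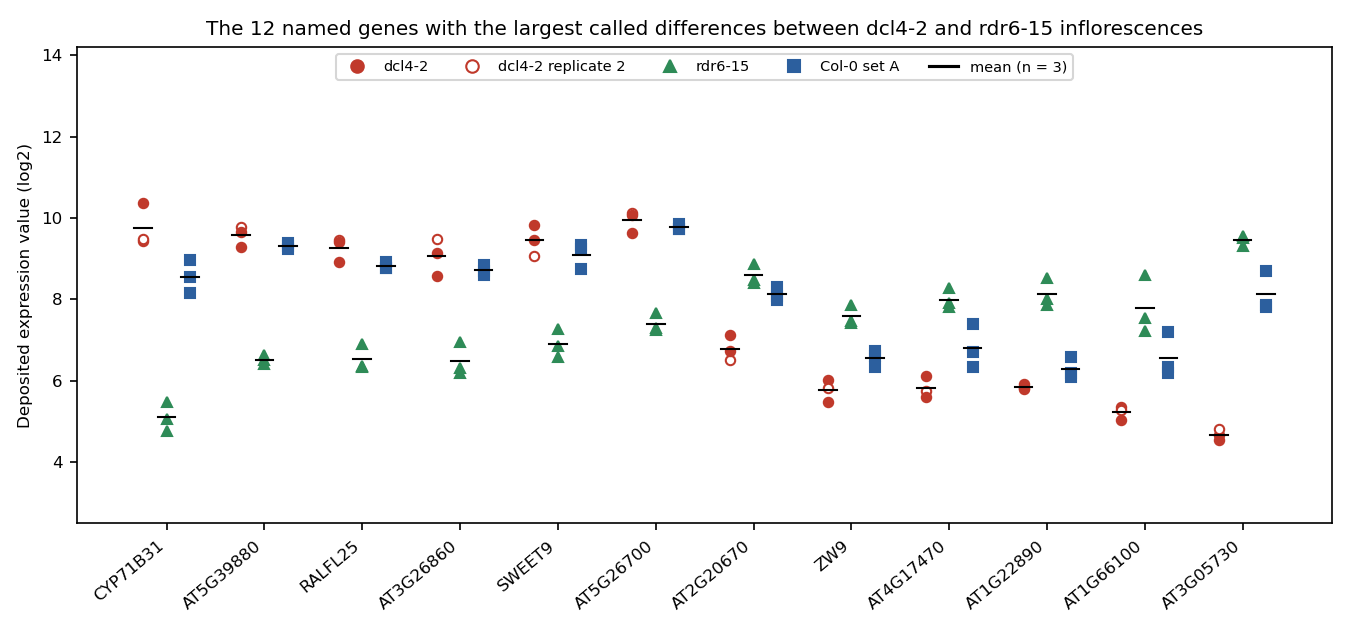
Deposited log2 expression values (y axis) in inflorescence of the 12 named genes with the largest called differences between dcl4-2 and rdr6-15; circles are dcl4-2 arrays (open, replicate 2), triangles rdr6-15, squares Col-0 set A and bars the means of 3 arrays. The first 6 genes are low in rdr6-15, and AT3G05730 is the gene in which dcl4-2 lies furthest below both other groups (4.68, against 9.46 and 8.13).

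In leaves no probe set was called between dcl4-2 and Col-0 by limma (0%), and 3 were called with array weights or without dcl4-2 leaf replicate 2. At an unadjusted p under 0.05 there were 652 (2.87%). That is a smaller share than this threshold alone gives on average where nothing changes. The test of the difference between organs, the dcl4-2 difference in inflorescence minus that in leaf, called 51 probe sets (0.224%), 42 of them lower (0.185%) and 9 higher (0.0396%). AT3G05730 differed between the organs by -3.56 ± 0.43 (limma adjusted p = 0.000246). AT3G15450 was lower in dcl4-2 inflorescences but had 10.99, 10.08 and 11.48 in dcl4-2 leaves against 8.78, 9.86 and 10.36 in Col-0 leaves, where the groups overlapped (1.18 ± 0.50, not called). Its difference between organs was -2.78 ± 0.53 (limma adjusted p = 0.0239). AT2G20670 (-1.99 ± 0.42), AT1G26800 (-1.61 ± 0.28) and AT2G05540 (-1.36 ± 0.21) were likewise lower in dcl4-2 inflorescences, with leaf differences of 0.65, 0.60 and 0.43, none of them called. AT1G55450 differed by -1.32 ± 0.25, with a leaf difference of 0.02.

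In the other direction ADPG1, a polygalacturonase that loosens cell walls where organs split or shed, measured 5.78, 6.09 and 5.63 in dcl4-2 inflorescences against 5.04, 4.75 and 5.14 in Col-0 set A (0.86 ± 0.14, limma adjusted p = 0.00781), and 4.51, 4.44 and 4.53 in dcl4-2 leaves against 4.60, 4.36 and 4.49 in Col-0 leaves. The leaf groups overlapped, and its difference between organs was 0.84 ± 0.17. With no detection calls, the low leaf values of both genotypes may lie at background, where a difference could not have been seen. AT1G75300 (1.05 ± 0.20), AT2G34700 (1.04 ± 0.20), AT2G44260 (0.78 ± 0.15) and AT1G76580 (0.73 ± 0.14) also had positive differences between organs, and each rose in dcl4-2 inflorescences. AT2G20625 (1.23 ± 0.21) averaged 4.52 in dcl4-2 and 4.55 in set A inflorescences, and its leaf values were 4.88, 4.91 and 4.77 in dcl4-2 against 5.89, 5.81 and 6.63 in Col-0. Its inflorescence values may likewise lie at background. The organ calls of AT3G05730, AT2G05540 and AT2G20625 held whichever 1 of the 12 arrays was left out, and AT1G26800 lost its call without dcl4-2 inflorescence replicate 2 (limma adjusted p = 0.0509). Those of the other 8 ended in 7 to 9 of those 12 fits. The number called was 20 without dcl4-2 inflorescence replicate 2, 17 and 21 without set A replicates 1 and 3, 30, 78 and 30 without dcl4-2 leaf replicates 1, 2 and 3, and 27 without Col-0 leaf replicate 1.

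**Figure D4:**
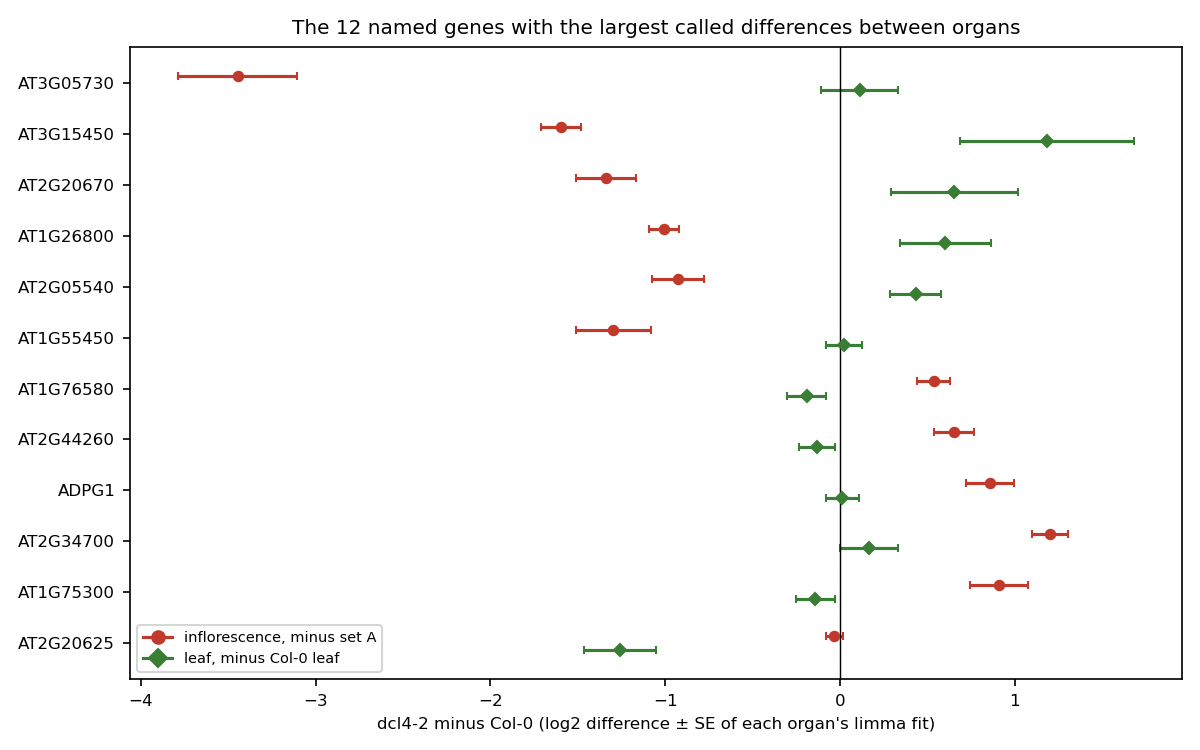
Log2 differences (x axis) dcl4-2 minus Col-0 set A in inflorescence (circles) and dcl4-2 minus Col-0 in leaf (diamonds) for the 12 named genes with the largest called differences between organs; bars are ± 1 standard error of each organ's limma fit. AT3G05730 lies at -3.45 in inflorescence, where it was called, and at 0.11 in leaf, and AT2G20625 at -0.03 in inflorescence and -1.26 in leaf, called in neither organ alone.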

How the data were processed

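Per the submitters' processing notes the deposited log2 values were made by RMA, which corrects background, normalizes between arrays and summarizes probes. The sources used here do not give its version or say whether the 27 arrays were normalized jointly. The series table was used as deposited, every column of per-sample values was mapped to a sample by its name, and control probe sets were left out. Groups were taken from the sample descriptions. Gene names came from the platform annotation at GEO, updated through the RefSeq gene table of TAIR10.1 (13436 matched), 8730 having no symbol and 503 several. For the 146 genes with several probe sets, the one with the highest mean was used.

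Differences were tested with limma 3.58.1 in R 4.3.3 (lmFit and eBayes, Benjamini-Hochberg adjustment) on the 15 inflorescence arrays, whose 5 groups share 1 estimate of the spread, on the 12 leaf arrays, or on all 27 for the difference between organs. No depth can be given for arrays, and 3 arrays a group limit the precision. Where the labels do not say that Col-0 arrays came from separate plants, p-values measure the spread between these arrays. On simulated data with the spread of these arrays, 94 of 100 changes of 1 log2 unit and 58 of 100 of 0.5 were called between dcl4-2 and set A, with 12 unchanged probe sets called among 22746. The simulated noise was independent between probe sets, with the same spread in all groups of a probe set. It held no outlying array such as dcl4-2 replicate 2, so these rates need not hold for the real arrays.

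Named genes were the 12 largest rises and 12 largest falls among called probe sets with 1 symbol and no overlap, the called members of each list or else up to 3 with the smallest p, the 6 largest in each direction against rdr6-15 and between organs, and pathway genes with 1 symbol. Other list members and marker genes were added to give ranges and were chosen after their values were seen. The members and the lists were chosen with earlier results of these data known. Alternatives tried were filtering of weak probe sets, median centring, quantile normalization, a trended and robust variance, array weights, other sets of arrays and controls, and each array left out in turn.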

Additional observations from a re-analysis of the deposited data

Results flagged for a closer look

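The dcl4-2 difference was not the same in inflorescence and leaf for 14 of the genes described, by the limma interaction test at an adjusted p under 0.05, which called 0.224% of all probe sets. Of these genes, 12 were named for the size of this difference, so their number is no result. In inflorescence minus leaf, the difference was -3.56 for AT3G05730, -2.78 for AT3G15450, -1.99 for AT2G20670, -1.61 for AT1G26800, -1.36 for AT2G05540 and -1.32 for AT1G55450. It was -0.95 for XERICO, which differed by -0.42 in inflorescence and 0.53 in leaf, and -0.78 for WES1, which differed by -0.60 and 0.18. The organ call of XERICO ended in 8 of the 12 fits that left out 1 array, and that of WES1 in 6. On the other side it was 1.23 for AT2G20625, 1.05 for AT1G75300, 1.04 for AT2G34700, 0.84 for ADPG1, 0.78 for AT2G44260 and 0.73 for AT1G76580. The control transcripts had 3′ minus 5′ differences of 2.297 to 3.43 on all leaf arrays and 1.196 to 2.53 on the inflorescence arrays, and the part of this in the differences between organs was not tested. Groups of 3 arrays are too small for a test of single outlying arrays.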

How the results depend on the processing

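No paired analysis was possible because the labels give no replicate numbers, those used here following the order of the sample records. The 473 calls against set A became 1432 with array weights, 219 with the 6 arrays alone, 237 with all 27 arrays in 1 fit, 11427 with Col-0 set B as the control, 8064 with the mean of both sets, and 916 without the 3 inflorescence arrays of high 3′ minus 5′ difference, an alternative added after seeing the data. Leaving out 1 array gave 157 to 390, against rdr6-15 2320 to 3030 (of 3513), between organs 17 to 78 (of 51), in leaf 0 to 3 (of 0), and for rdr6-15 minus set A 1035 to 1396 (of 1969). Array weights gave 183 calls between organs, 3 in leaf and 5254 for rdr6-15 minus set A, for which set B gave 11894 and the added alternative 4574. Filtering, centring, quantile normalization and the trended variance left every count within 1.5 times. Of 44 called genes named against set A, 43 kept their call under centring (all but GID1B), 43 under quantile normalization (all but AT2G25450) and 25 with the 6 arrays alone. Directions turned with set B as the control for AT2G25450 (-1.74), EXO (-1.33), AT3G62550 (-0.50), COR47 (-0.23), EXGT-A3 (-1.92), EXLA1 (-1.38), ATG8H (-2.14), AGO7 (0.65), SE (0.16), SWEET10 (0.52), AT1G76580 (-0.10) and AT2G20625 (0.017), and SWEET13 came to 0.00. With the mean of both sets they turned for AT2G25450 (-0.37), EXO (-0.078), EXGT-A3 (-0.58), EXLA1 (-0.27), ATG8H (-0.73), AGO7 (0.32), SE (0.0313) and SWEET10 (0.0355). Over the fits that left out 1 array AGO7 ran between -0.0727 and 0.0597, above 0 without dcl4-2 replicate 3 or set A replicate 1 or 2. Of 290 list medians under alternatives, 35 moved by more than 1 SD. The causes were not tested.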

Other observations

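Called genes that are neighbours in the RefSeq gene order were few: among 247 called genes there were 5 pairs of adjacent protein-coding genes, 4 of them changed in the same direction. COR15B (0.95) and COR15A (0.74) are 1 pair. AT1G75880 (0.74) and AT1G75890 (0.76) rose together, as did AT4G23670 (0.50) and AT4G23680 (0.69), and AT4G24130 (0.57) and AT4G24140 (0.54). WRKY53 (-1.33) and AT4G23820 (0.22) moved apart. These pairs were chosen after their values were seen, and neighbours can be near copies whose probe sets share target RNA.

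The smaller lists held few calls. No call was made among 16 mitochondrial transcripts (median -0.05), 4 stomatal genes (-0.07), 5 genes of cell division (0.07), 5 of flavonoid synthesis (-0.12), 6 of leaf polarity and organ growth (0.10) or 9 of vegetative phase and flowering time (-0.10). Over all probe sets 2.08% were called, so no call in lists this short does not show that these genes were unchanged.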
